A study of Mus musculus with 12 samples.

Results

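This account concerns the response of estrogen receptor alpha knockout liver to a high-fat diet. It compares the 3 arrays of livers from aERKO females on high-fat diet with the 3 arrays of livers from aERKO females on normal diet, 6 arrays of the 12 in the series, and it does so across the 12264 genes that rose above the middle of the array often enough to be tested. All 6 samples came from adult female mice of B6.129 background with the genotype Esr1-/-, so every animal in both groups lacked the receptor gene in its intact form. The labels name no Cre driver and no tissue in which Esr1 is disrupted. The normal diet was NIH-31 chow and the high-fat diet was a purified feed from Research Diets in which 60% of the energy is fat, fed for 2 weeks. The diets differ in more than fat, and diet differences below are between the whole diets. Wild type (Esr1+/+) females of the same background and age class on the same diets, 3 arrays a group, served for comparison. Whether the replicates are separate mice is not stated in the labels, and if they are not, the p-values below measure technical spread between arrays.

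Estrogen receptor alpha is a nuclear receptor that binds estradiol and then regulates genes, and the liver is among its targets. In rodents many liver genes differ between the sexes, chiefly because the pituitary releases growth hormone in pulses in males and more steadily in females, and estrogen shapes that pattern. Cytochromes P450 of the Cyp2b and Cyp3a families, sulfotransferases and Slc22a transporters are common female-biased genes, while Cyp4a12a, Slco1a1 and the Mup genes are typical of male liver. A fat-rich diet supplies fatty acids that are stored in lipid droplets, burned in mitochondria and peroxisomes, or exported in lipoproteins, and it lowers the need to make fat from sugar.

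The genes called higher on the high-fat diet in the knockout included the nearby female-biased P450 genes Cyp2b9 and Cyp2b13 of chromosome 7. Their upstream sequences are printed because the 2 genes were both called higher and these regions are near copies of each other. Each line gives the 250 bases before the annotated start on the plus strand of GRCm38.p6 from RefSeq, chr7:26173159-26173408 for Cyp2b9 and chr7:26061245-26061494 for Cyp2b13, and capitals mark the bases that differ.
Cyp2b9: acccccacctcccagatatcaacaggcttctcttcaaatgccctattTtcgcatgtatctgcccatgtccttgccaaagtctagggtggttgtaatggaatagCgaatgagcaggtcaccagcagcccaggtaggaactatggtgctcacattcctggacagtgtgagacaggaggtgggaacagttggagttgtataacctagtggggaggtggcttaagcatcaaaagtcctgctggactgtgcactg
Cyp2b13: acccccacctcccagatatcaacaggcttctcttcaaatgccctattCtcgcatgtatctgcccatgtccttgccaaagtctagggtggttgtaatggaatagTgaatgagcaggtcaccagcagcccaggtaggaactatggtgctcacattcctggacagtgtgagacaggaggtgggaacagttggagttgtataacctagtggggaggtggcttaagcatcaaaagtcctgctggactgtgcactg
The windows were identical at 248 of 250 bases (99.2%). Counted from 1 at the 5′ end of the window, and with the Cyp2b9 base first, the differences were T48C and C104T. Against the same window of the related Cyp2b10, the best ungapped alignment matched 50.6% of bases for Cyp2b9 and 50.2% for Cyp2b13. No binding data were used here, so these letters are a description of the loci.

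Esr1 was checked first. Its brightest probe set read 681, 586 and 601 on the 3 aERKO normal diet arrays and 885, 663 and 858 on the aERKO high-fat arrays, against 2438, 3930 and 1963 in the wild type normal diet group and 3212, 3676 and 3140 in the wild type high-fat group. Every knockout array lay below every wild type array, and a part of the signal remained. Diet moved it by 0.35 ± 0.20 (log2 difference ± SE, adjusted p = 0.606). Which part of the gene the probe set reads was not examined. The tissue label held: the mean log2 signal of 11 hepatocyte marker genes was between 15.01 and 15.44 on the knockout arrays.

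Some of the arrays carried transcripts of other tissues, which concerns every result below. Prss2, a trypsinogen made by the pancreas, read 17495, 41.1 and 15.4 on aERKO normal diet arrays and 11.5, 75.3 and 16.4 on high-fat arrays, so replicate 1 of the normal diet stood apart. The elastases Cela3b and Cela1 did the same, with 17468, 12.2 and 35.7 and 22034, 876 and 794 on normal diet against 18.3, 97.9 and 80.3 and 1137, 1028 and 1043 on high-fat diet. The mean log2(signal + 16) of 25 acinar genes was 11.43, 5.42 and 5.56 on the normal diet and 5.57, 5.83 and 5.75 on the high-fat diet. In wild type it ranged from 5.60 to 11.83, and 3 arrays were raised, normal diet replicate 2 and high-fat replicates 2 and 3. With the array of aERKO normal diet replicate 1 included, all 23 acinar genes tested had a negative diet difference in the knockout. Their median was -1.86, and 0 of them were called. Without that array, the differences of Prss2, Cela1 and Cela3b were 0.03, 0.35 and 0.92, and the median of the list was 0.24.

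Skeletal muscle transcripts were spread differently. Myh1, a fast myosin heavy chain, gave 5854, 255 and 15.8 on the normal diet and 21.1, 1675 and 14.5 on the high-fat diet, and the skeletal actin Acta1 gave 5794, 432 and 11.7 against 60.9, 2359 and 16.0. The 37 muscle genes had mean log2 levels of 9.57, 6.97 and 6.14 on the normal diet and 6.08, 8.44 and 6.25 on the high-fat diet, against 6.13 to 6.73 in wild type. Normal diet replicate 1 was the highest, high-fat replicate 2 was next and normal diet replicate 2 was slightly raised. Car3, which is listed among muscle markers but is also abundant in hepatocytes, did not follow them, with 73766, 65755 and 57881 against 71388, 66474 and 67080. Of 25 muscle genes tested, 19 had a negative difference, the median was -0.57 and 0 were called. Without normal diet replicate 1 the differences of Myh1 and Acta1 turned from negative to 0.42 and 0.69, and the median of the list turned to 0.37. Without high-fat replicate 2 that median was -1.18. None of the 59 genes called below is on the acinar, skeletal muscle or heart lists. In bulk tissue, fewer cells of a type and less RNA per cell cannot be told apart.

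**Figure D1:**
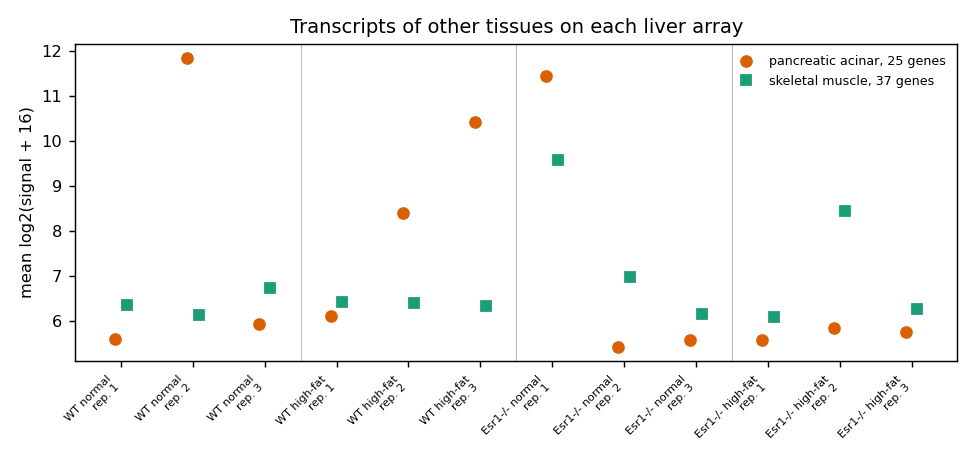
Mean log2(signal + 16) of 25 pancreatic acinar genes (circles) and 37 skeletal muscle genes (squares) on each of the 12 arrays, in the order of group and replicate. Acinar transcripts reached 11.43 and muscle transcripts 9.57 on the first aERKO (Esr1-/-) normal diet array, and muscle transcripts reached 8.44 on the second aERKO high-fat array.

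Across the genome few genes were called for a diet difference in the knockout, and a gene not called is not shown to be unchanged. By limma with Benjamini-Hochberg adjustment over all genes tested, 59 of 12264 genes (0.481%) were called at an adjusted p under 0.05, 41 of them higher (0.334%) and 18 lower (0.147%) on the high-fat diet. Of these, 18 were at least 2-fold higher and 8 at least 2-fold lower. The high-fat arrays all lay above the normal diet arrays for the 41 and all below for the 18. Over all genes tested this was so for 9.07% and 7.66%, or 16.7% together. The 59 were called from these same arrays, so their separation largely follows from the choice and adds no separate evidence. The median difference of all genes was 0.017 on the log2 scale, and 1265 genes (10.3%) had an unadjusted p under 0.05.

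The count changed with the arrays used. It was 22 without aERKO normal replicate 1, 32 without normal replicate 2, 15 without normal replicate 3, 23 without high-fat replicate 1, 13 without high-fat replicate 2, 45 without high-fat replicate 3 (31 of them among the 59) and 30 without WT high-fat replicate 2, which enters through the shared spread. Over all 12 arrays left out in turn it ran from 13 to 81, the highest without WT normal replicate 3. Of the 59, 12 stayed called whichever knockout array was left out. These were Cyp2b9, Cyp2b13, Hao2, Slc22a27, Slc22a29, Wfdc2, Dio1, Akr1c20, Tlcd2, Ces2a, Ehhadh and Slc7a2. Without both arrays that carried most of the pancreatic or muscle transcripts, normal replicate 1 and high-fat replicate 2, 16 genes were called and 15 of them were among the 59. Those 15 were Hamp2, Igfbp2, Pltp and Cyp4a31 and all of the 12 except Cyp2b13, which had an adjusted p of 0.0894.

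**Figure D2:**
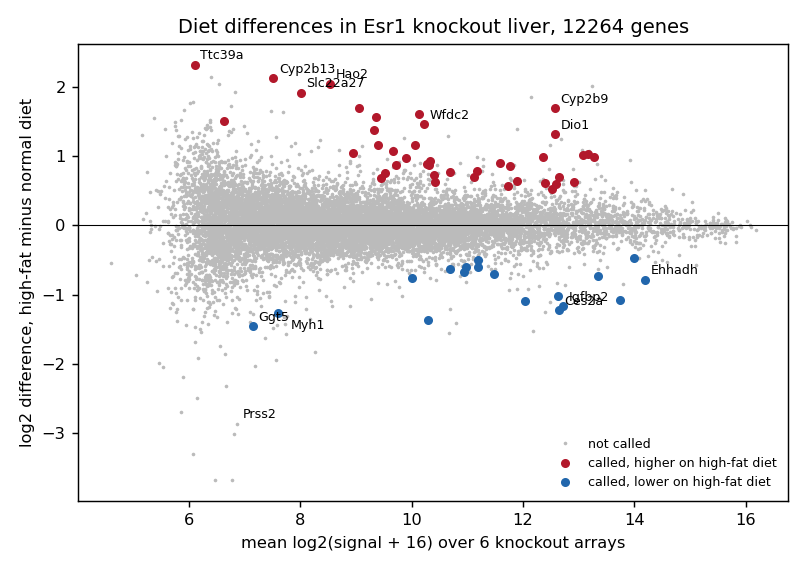
Diet difference of each of 12264 genes in aERKO liver (y axis, log2, high-fat minus normal diet) against its mean log2(signal + 16) over the 6 knockout arrays (x axis). Red points are the 41 genes called higher and blue points the 18 called lower; the acinar gene Prss2 (-2.86) and the muscle gene Myh1 (-1.57) have large differences and were not called.

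Of the 23 pathway lists, the female-biased liver genes held the most calls. Of 24 tested, 5 were called higher, against 0.334% of all genes, and 0 lower. The 5 were Cyp2b9, Cyp2b13, Hao2, Slc22a27 and Cyp17a1. The list had 18 positive and 6 negative differences. At unadjusted p under 0.05 in the limma fit were 7 higher and 2 lower genes, against 10.3% of all genes in either direction. The median of the list was 0.22, while the median of all genes was 0.017. It was between 0.22 and 0.38 when 1 knockout array was left out; among the 23 pathway lists the median of 12 changed sign in at least 1 of these settings, and this list was not among them. The mean log2 level of the list was 8.89 to 8.94 on the 3 normal diet arrays and 9.19 to 9.52 on the 3 high-fat arrays. These ranges did not overlap, which was not particular to this list. Cholesterol synthesis (10.19 to 10.39 against 10.51 to 11.48) and PPAR alpha targets (12.84 to 12.95 against 12.77 to 12.79) separated as well. So did the male-biased list, and 16.7% of all genes had non-overlapping groups. Members of the female-biased list outside the 5 ranged from -0.64 to 0.73, so the shift was not shared by all.

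Cyp2b9, a female-biased P450, read 2816, 4428 and 3126 on the normal diet (mean 3457 ± 855, SD, n = 3) and 13693, 9968 and 9755 on the high-fat diet (11139 ± 2210). Each high-fat array was well above each normal diet array. The high-fat values reached the range of wild type arrays on normal diet, which were 9550, 11683 and 8361. Those wild type arrays were on the other diet, so a return to the wild type level was not tested. The wild type diet difference was also positive, since the difference between the genotypes' responses given below is smaller than the knockout difference. That wild type rise was not called. Whether the knockout arrays differ from wild type arrays on the high-fat diet was not tested for this gene. The log2 diet difference in the knockout was 1.69 ± 0.17 (adjusted p = 0.000483). It was called in all 28 alternative settings.

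Cyp2b13 is the nearby gene whose upstream window is nearly identical. Its normal diet signals were 71.1, 70.1 and 75.2, below the array median on all 3 arrays, and the high-fat signals were 616, 436 and 179.6. The groups did not overlap, with a difference of 2.12 ± 0.29 (adjusted p = 0.00484), whose size is imprecise because of the dim normal diet arrays. Wild type arrays gave 14020, 16196 and 13398 on normal diet, so the high-fat knockout arrays remained far below them. No probe or transcript sequences were compared, and whether probes of each gene bind transcripts of the other was not tested. On the normal diet arrays the Cyp2b9 probe set read 2816 to 4428 and the Cyp2b13 probe set was below the array median. On the high-fat arrays the signals of both genes fell in the same order, from replicate 1 to replicate 3.

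Hao2, a peroxisomal hydroxyacid oxidase, gave 187, 225 and 110.4 on the normal diet and 1076, 581 and 644 on the high-fat diet. The lowest high-fat array was above the highest normal diet array, and the difference was 2.04 ± 0.30 (adjusted p = 0.00819). Wild type normal diet arrays read 2385, 3986 and 2613, higher than all 6 knockout arrays. Slc22a27, an organic anion transporter of the Slc22 family, gave 113, 164 and 85.3 against 594, 402 and 475, a difference of 1.91 ± 0.22 (adjusted p = 0.0012). It too was called in all 28 alternative settings, and it stayed below the wild type normal diet values of 992, 1391 and 842.

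Its relative Slc22a29, which was on no list, also rose, from 298, 348 and 474 to 1248, 989 and 1107 with no overlap (difference 1.56 ± 0.16, adjusted p = 0.000483). These transporters are similar in sequence, and their signals may share probes. Cyp17a1, the steroid 17-alpha hydroxylase, read 592, 838 and 678 on the normal diet and 1760, 1494 and 1494 on the high-fat diet. It rose by 1.16 ± 0.22 (adjusted p = 0.0371), was not called without both arrays named above (adjusted p = 0.303), and stayed below wild type at 3073, 3347 and 4972. Another transporter of the family, Slc22a26, named after its values were seen, was 168, 263 and 241 against 358, 264 and 342 (difference 0.50 ± 0.21, adjusted p = 0.406), and the groups touched without overlapping.

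Most differences of male-biased genes were negative, and 0 of the 20 tested were called. There were 14 negative and 6 positive differences, and the median was -0.30. The mean log2 level of the list was 10.53 to 10.56 on normal diet and 10.01 to 10.27 on high-fat diet. These ranges did not overlap, as for the female-biased, cholesterol synthesis and PPAR alpha lists. At unadjusted p under 0.05 were 6 lower genes and 1 higher gene, against 10.3% of all genes in either direction. The male-specific fatty acid hydroxylase Cyp4a12a, named after its values were seen, read 9660, 7314 and 6854 on the normal diet and 1162, 3346 and 5212 on the high-fat diet. All high-fat arrays were lower, but they differed widely among themselves, and the difference of -1.52 ± 0.53 was not called (adjusted p = 0.303). Wild type females gave 77.6, 28.2 and 7.3 on normal diet, each under the median of its array.

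The organic anion transporter Slco1a1, named on the same terms, gave 3893, 2744 and 2245 against 688, 1105 and 1647, a difference of -1.41 ± 0.82 (adjusted p = 0.606). Nat8f5, an N-acetyltransferase family member, had the lowest p of the list and a positive difference, with 922, 903 and 1288 on the normal diet against 1737, 1911 and 2039 on the high-fat diet. This difference of 0.88 ± 0.18 just missed the threshold (adjusted p = 0.0549). In wild type it read 201, 273 and 179 on the normal diet against 125, 142 and 114 on the high-fat diet. The test of the difference between genotypes gave 1.57 ± 0.26 (adjusted p = 0.177), the lowest adjusted p of any gene for that difference, shared with Wfdc2.

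**Figure D3:**
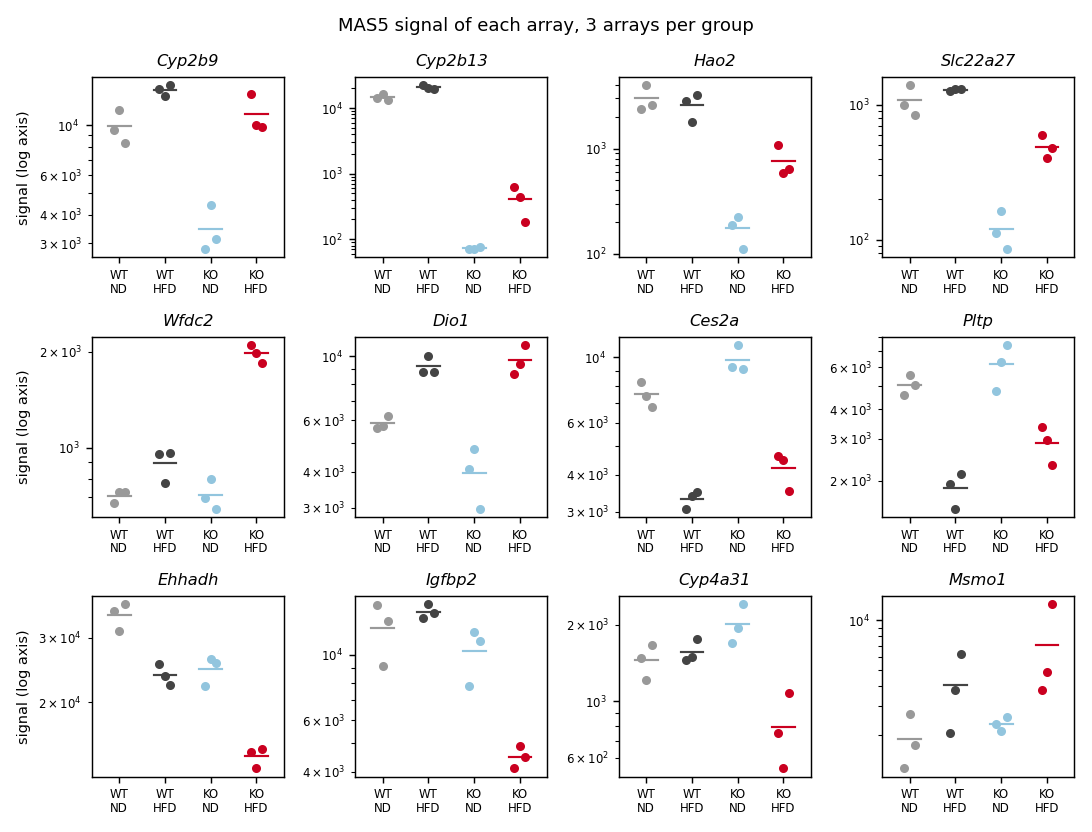
MAS5 signal (log axis) of 12 genes on each of the 12 arrays, 3 arrays per group, with wild type (WT) and aERKO (KO) on normal diet (ND) and high-fat diet (HFD); lines mark group means. The 12 genes were chosen with their values known, and all but Msmo1 were called. The separation of knockout high-fat from knockout normal diet arrays in every panel therefore largely follows from the choice. Of all genes tested, 16.7% had non-overlapping knockout diet groups. On the knockout arrays Cyp2b13, Hao2 and Slc22a27 stay below both wild type groups.

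Several other called genes act on hormones or steroids. Dio1, the type 1 deiodinase that turns thyroxine into the active thyroid hormone, read 4086, 4780 and 2974 on the normal diet and 8694, 9381 and 10938 on the high-fat diet. The difference of 1.31 ± 0.15 (adjusted p = 0.000825) was called in all 28 alternative settings. Sult1b1, a sulfotransferase that acts on thyroid hormones and phenols, rose by 0.87 ± 0.14 (adjusted p = 0.012), from 535, 679.7 and 617 to 1219, 1047 and 1110. It and the 4 genes that follow were on no list and are named after their values were seen.

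Akr1c20, an aldo-keto reductase, went from 6568, 5900 and 5710 to 13045, 13204 and 10547, and its difference of 1.01 ± 0.11 had an adjusted p of 0.000825. The 3-beta-hydroxysteroid dehydrogenases Hsd3b2 and Hsd3b3, which are near copies of each other and may share probes, rose by 0.96 ± 0.19 (adjusted p = 0.0423) and 0.90 ± 0.17 (adjusted p = 0.0338). Their wild type differences were of like size, 0.94 ± 0.19 and 0.86 ± 0.17, and were not called. Leap2, a liver peptide that opposes ghrelin at its receptor, read 7196, 6457 and 7354 on the normal diet and 19511, 14407 and 9502 on the high-fat diet (difference 0.99 ± 0.19, adjusted p = 0.0386), with high-fat replicate 1 the highest.

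Of 22 hormone receptor and growth hormone genes, 0 were called higher and 1 lower, where 0.334% and 0.147% of all genes were. The gene called was Igfbp2, a binding protein of insulin-like growth factors that circulates in blood. Igfbp2 read 7817, 11915 and 11131 on the normal diet and 4110, 4883 and 4498 on the high-fat diet, a difference of -1.17 ± 0.17 (adjusted p = 0.0087). Wild type arrays overlapped between the diets, with 14751, 9157 and 13086 on the normal diet against 13332, 14837 and 13894 on the high-fat diet. The test of the difference between genotypes was -1.38 ± 0.24 (adjusted p = 0.203) and was not passed. Among 24 secreted liver hormones, Igfbp2, which is on both lists, was called lower and Hamp2, a relative of the iron hormone hepcidin, higher. Of all genes 0.481% were called. Hamp2 read 8835, 5687 and 5189 against 16598, 12014 and 11207 (difference 1.03 ± 0.20, adjusted p = 0.0386), and its probes may also bind transcripts of its paralog.

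Wfdc2, a small secreted protein of the whey acidic protein family, gave the lowest p of the whole comparison. It was 697, 797 and 643 on the normal diet and 2105, 1981 and 1851 on the high-fat diet, with narrow groups far apart (difference 1.46 ± 0.13, adjusted p = 0.000297). In wild type the values were 670.3, 728 and 725 on the normal diet against 955, 774 and 962 on the high-fat diet, a difference of 0.33 ± 0.13 (adjusted p = 0.497). The knockout normal diet arrays overlapped the wild type normal diet arrays, and the knockout high-fat arrays lay above all 6 wild type arrays. The difference of the responses was 1.13 ± 0.18 (adjusted p = 0.177).

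Further large rises were found in genes of other kinds. Aqp8, a water channel, went from 461, 813 and 655 to 1576, 1824 and 2567 (difference 1.61 ± 0.25, adjusted p = 0.012). Ttc39a, a tetratricopeptide repeat protein, had the largest rise, 2.32 ± 0.41 (adjusted p = 0.0282), but from signals of 12.2, 19.2 and 13.5, below the array median, to 68.9, 241 and 150.1, so the size is imprecise. Armc9, an armadillo repeat protein that was also below the array median on normal diet, went from 48.5, 27.1 and 57.6 to 142, 133 and 181 (difference 1.50 ± 0.30, adjusted p = 0.0487). One of the other probe sets of Armc9 went the opposite way, and with the mean of its 7 probe sets it was not called (adjusted p = 0.671).

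The membrane protein gene Tmem14a rose by 1.37 ± 0.26 (adjusted p = 0.0371), from 251, 457 and 497 to 1068, 1057 and 942, and the transcript 9030619P08Rik by 1.69 ± 0.29 (adjusted p = 0.0225), from 296, 447 and 162 to 1274, 736 and 868. Both had wild type differences close to these, 1.37 ± 0.26 and 1.48 ± 0.29, with adjusted p of 0.0685 and 0.0779. The remaining called rises ran from 0.52 (Spp2) to 1.04 (Chchd6), apart from those named elsewhere.

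The lists of lipid metabolism held 4 calls, in lists of 29, 20, 14 and 21 genes tested. The lists of lipid droplets (22 tested), fatty acid uptake (20), cholesterol synthesis (20) and bile acids (23) held 0. Ehhadh and Pltp were lower and Agpat2 and Pklr higher, where 0.147% and 0.334% of all genes were. Ces2a, a carboxylesterase of the endoplasmic reticulum, fell from 9300, 11031 and 9158 to 4646, 4488 and 3517 without overlap (difference -1.22 ± 0.12, adjusted p = 0.000483). In wild type it fell too, from 8265, 7421 and 6814 to 3065, 3394 and 3501 (-1.17 ± 0.12, adjusted p = 0.00263). Among 26 xenobiotic genes Ces2a was the 1 called lower and Cyp2c38, a P450, the 1 called higher, against 0.481% of all genes called. Cyp2c38 went from 2833, 3323 and 2940 to 4294, 5162 and 4741 (difference 0.64 ± 0.12, adjusted p = 0.0413). Outside that list Cyp2c23, an arachidonic acid epoxygenase, fell from 10003, 8938 and 8027 to 3618, 4262 and 5580 (difference -1.02 ± 0.15, adjusted p = 0.01).

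Of 29 genes of fatty acid oxidation or PPAR alpha control, 1 was called lower and 0 higher, with 20 negative and 9 positive differences and a median of -0.12. The gene called was Ehhadh, the bifunctional enzyme of peroxisomal beta-oxidation, which read 22104, 26192 and 25580 on the normal diet and 14636, 13180 and 14883 on the high-fat diet (difference -0.79 ± 0.09, adjusted p = 0.00145). In wild type it was 35440, 31321 and 36937 on the normal diet against 25416, 23557 and 22304 on the high-fat diet, a difference of -0.54 ± 0.09 (adjusted p = 0.0626). Cyp4a31, a member of the omega-hydroxylase family on no list, fell from 1689, 1947 and 2399 to 753, 545 and 1082 (difference -1.36 ± 0.21, adjusted p = 0.012), while wild type arrays gave 1484, 1207 and 1660 on the normal diet against 1447, 1498 and 1754 on the high-fat diet. The acyl-CoA thioesterase Acot1, named after its values were seen, gave 4336, 8243 and 8719 against 2991, 3713 and 4462 with overlapping groups (difference -0.88 ± 0.28, adjusted p = 0.231).

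Lipoprotein genes numbered 20, with 1 called lower and 0 higher. This was Pltp, the phospholipid transfer protein that remodels lipoproteins, at 4787, 6319 and 7439 on the normal diet and 3376, 2962 and 2330 on the high-fat diet (difference -1.09 ± 0.18, adjusted p = 0.0153). It was called in wild type as well (-1.44 ± 0.18, adjusted p = 0.00742). In triglyceride synthesis, 1 of 14 genes was called, Agpat2, an acyltransferase that makes phosphatidic acid. Agpat2 went from 4568, 4871 and 5757 to 7743, 7896 and 7166 (difference 0.59 ± 0.12, adjusted p = 0.0466). Among 21 fatty acid synthesis genes 1 was called higher, Pklr, the liver pyruvate kinase of glycolysis. Pklr read 330.5, 492 and 504 against 998, 1234 and 780.1 (difference 1.15 ± 0.20, adjusted p = 0.0225), and the median of the list was 0.00. Fasn, the fatty acid synthase, gave 833, 943 and 910.2 against 804, 1257 and 1500 with overlap (difference 0.36 ± 0.27, adjusted p = 0.702). Scd1, the stearoyl-CoA desaturase, gave 58246, 59285 and 49554 against 52753, 51368 and 36579 (difference -0.26 ± 0.24, adjusted p = 0.778).

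Of the 22 lipid droplet genes, 0 were called in the knockout. There were 12 positive and 10 negative differences, with a median of 0.07. The member with the lowest p was Ces1d, a lipase of the droplet and endoplasmic reticulum, at 29934, 30772 and 28329 against 37629, 36456 and 38429 (difference 0.34 ± 0.09, adjusted p = 0.161), and 1 of its 3 probe sets had the opposite sign. Cidea, which fuses droplets, read 492, 284 and 318 on the normal diet and 1058, 1428 and 336 on the high-fat diet. Replicates 1 and 2 of the high-fat diet were high and replicate 3 lay within the normal diet range, and the difference of 1.14 ± 0.52 was not called (adjusted p = 0.468). Its relative Cidec gave 825, 766 and 775 against 1333, 1066 and 594 (adjusted p = 0.907).

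The droplet coat proteins did not pass either. Plin2 was 19439, 17128 and 18370 against 19080, 16643 and 13957 (difference -0.15 ± 0.16, adjusted p = 0.812), and Plin4 was 2607, 1783 and 1660 against 1649, 1450 and 1256 (difference -0.45 ± 0.41, adjusted p = 0.774). Mogat1, a monoacylglycerol acyltransferase, read 459, 558 and 405 against 824, 954 and 656, with all high-fat arrays above all normal diet arrays (difference 0.75 ± 0.32, adjusted p = 0.417). The fatty acid receptor Cd36 gave a difference of 0.42 ± 0.28 (adjusted p = 0.663) and the nuclear receptor Pparg one of 0.65 ± 0.29 (adjusted p = 0.449), both with overlapping groups. Fgf21, a hormone of the fasting response, gave 306, 455 and 792 against 596, 596 and 483 (difference 0.20 ± 0.36, adjusted p = 0.905), with a sign that turned negative without normal replicate 1. Of 20 genes for the uptake, binding and activation of fatty acids 0 were called, and Acsl3, an acyl-CoA synthetase, came closest (difference 0.95 ± 0.20, adjusted p = 0.0549).

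Cholesterol synthesis genes had a list median of 0.57, and 0 of 20 were called. There were 17 positive and 3 negative differences, and 10 genes higher and 1 lower at unadjusted p under 0.05, while 10.3% of all genes had such a p in either direction. The mean log2 level of the list was 10.19, 10.39 and 10.38 on the normal diet and 10.51, 10.73 and 11.48 on the high-fat diet. The third high-fat array stood highest. Without it the median was 0.28, below the 0.38 of the female-biased list in the same setting. Hmgcs1, which makes the precursor of mevalonate, had the lowest p and read 5181, 5873 and 6483 against 9305, 9708 and 21228 (difference 1.09 ± 0.28, adjusted p = 0.141).

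The same array led for the enzymes further down the pathway, which are named after their values were seen. Msmo1, a sterol methyl oxidase, read 2326, 2108 and 2562 against 3784, 4820 and 12517, Fdps, the farnesyl diphosphate synthase, 1011, 996 and 1024 against 1533, 2040 and 4897, and Sqle, the squalene epoxidase, 458, 540.4 and 611 against 682, 1273 and 1873. Groups did not overlap for these 3 genes, as for 9.07% of all genes in this direction, and adjusted p was 0.216, 0.212 and 0.301. The second probe set of Fdps had the opposite sign. Of 23 bile acid genes 0 were called and the median was -0.04. Cyp7a1, the rate-limiting enzyme of bile acid synthesis, read 1910, 2162 and 3267 on the normal diet and 7400, 8359 and 10319 on the high-fat diet. These groups lay far apart, with a difference of 1.85 ± 0.45, but the shared spread was wide and the call was not made (adjusted p = 0.112). In wild type Cyp7a1 ranged over 2126, 9094 and 9079 on normal diet.

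**Figure D4:**
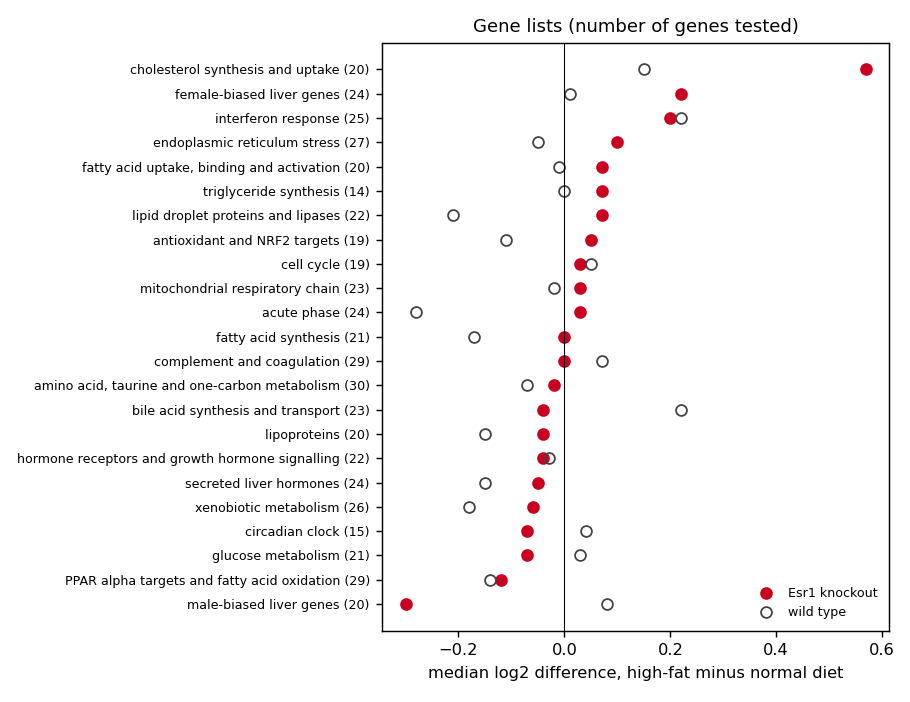
Median log2 diet difference (x axis, high-fat minus normal diet) of each of 23 gene lists in aERKO liver (filled) and wild type liver (open), with the number of genes tested in brackets. Cholesterol synthesis (0.57) and female-biased genes (0.22) had the highest medians in the knockout with all arrays and male-biased genes (-0.30) the lowest; without aERKO high-fat replicate 3 the first pair changed order (0.28 and 0.38), and medians are descriptions without a test.

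Amino acid metabolism held calls in both directions. Of 30 genes, 1 was called higher and 1 lower, against 0.481% of all genes called. Gamt, which completes creatine synthesis, rose from 2481, 2758 and 2554 to 4975, 4536 and 4582 (difference 0.85 ± 0.14, adjusted p = 0.0144), and it was called in wild type too (0.90 ± 0.14, adjusted p = 0.026). Agxt, the peroxisomal aminotransferase that clears glyoxylate, fell from 13351, 15029 and 12091 to 8404, 7621 and 8317 (difference -0.73 ± 0.11, adjusted p = 0.0118). On no list, Slc7a2, a transporter of arginine and other cationic amino acids, fell from 24800, 18919 and 16489 to 10332, 7650 and 10346 (difference -1.08 ± 0.15, adjusted p = 0.00484). Wild type arrays gave 13719, 11810 and 14465 on the normal diet against 12468, 12859 and 13327 on the high-fat diet for it, which overlapped.

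Among 15 clock genes 1 rose and 1 fell, against 0.481% of all genes called. Cry1, a repressor of the clock, went from 503, 544 and 602 to 1216, 932 and 1406 (difference 1.07 ± 0.22, adjusted p = 0.0487). Rora, a nuclear receptor that activates clock genes, went from 3010, 2958 and 2666 to 1847, 1859 and 1968 (difference -0.60 ± 0.11, adjusted p = 0.0304). The labels used here give no time of day for the samples. Both calls were lost when single knockout arrays were left out, with adjusted p up to 0.193 and 0.146, while the differences stayed at 0.94 to 1.23 for Cry1 and -0.65 to -0.57 for Rora.

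The other large falls were of mixed function. Ggt5, a gamma-glutamyl transferase that acts on leukotrienes, had the largest, -1.46 ± 0.25 (adjusted p = 0.0225), from 244, 169 and 261 to 105, 52.7 and 61.0, though 1 of its 3 probe sets had the opposite sign. Cadm4, a cell adhesion molecule, went from 239, 275 and 359 to 114, 112 and 105 (difference -1.26 ± 0.25, adjusted p = 0.0487). The kinase Tnk2 had a difference of -0.76 ± 0.14 (adjusted p = 0.0304) and Bach1, a heme-sensing transcriptional repressor, one of -0.70 ± 0.14 (adjusted p = 0.0466). Outside the naming rule, Txnip, which binds thioredoxin, went from 2981, 2641 and 2715 to 2138, 1808 and 1938 (adjusted p = 0.0466), and Grn, which encodes progranulin, from 20237, 18231 and 19482 to 13061, 14348 and 14155 (adjusted p = 0.023).

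The 8 remaining pathway lists had 0 calls. For glucose metabolism (21 genes, median -0.07) the member with the lowest p was Khk, the ketohexokinase (0.71 ± 0.18, adjusted p = 0.132). For antioxidant genes (19, median 0.05) it was Gsr (-0.51 ± 0.12, adjusted p = 0.0818), for acute phase genes (24, median 0.03) Saa3 (0.56 ± 0.22, adjusted p = 0.357), and for complement and coagulation (29, median 0.00) Mbl2 (0.35 ± 0.09, adjusted p = 0.122). Interferon response genes (25) had 20 positive differences and a median of 0.20, led by Oas1a (0.57 ± 0.14, adjusted p = 0.108), and the wild type median was 0.22. Endoplasmic reticulum stress genes (27) had 21 positive differences and a median of 0.10, led by the chaperone Calr (0.48 ± 0.11, adjusted p = 0.0894). Cell cycle genes (19, median 0.03) were led by Gadd45a (-0.63 ± 0.23, adjusted p = 0.339), and respiratory chain genes (23, median 0.03) by Sdhb (0.29 ± 0.13, adjusted p = 0.475).

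Markers of the cell types of the liver gave 1 call in all, where 0.481% of all genes were called. Periportal hepatocyte markers (15 tested) included Aldh1b1, a mitochondrial aldehyde dehydrogenase, which rose from 822, 1083 and 876 to 1784, 1642 and 1684 (difference 0.88 ± 0.15, adjusted p = 0.0173), and the median of that list was -0.16. Hepatocyte markers (11) had a median of -0.05 and pericentral markers (14) one of 0.07. Stellate and matrix markers (21) had 16 positive differences and a median of 0.18, which was 0.04 without high-fat replicate 1. Macrophage and Kupffer markers (16) had a median of 0.12, sinusoidal endothelial markers (15) one of 0.04 and lymphocyte markers (11) one of -0.05. Of the 18 marker lists, the median of 12 changed sign when 1 or another knockout array was left out, those of the last 3 lists among them. The remaining marker lists had at most 7 genes tested, and leaving out 1 array moved their medians widely. For neutrophils the median was 0.22, but 1.04 without normal replicate 1 and -0.39 without normal replicate 2. For adipocytes it was 0.15, and 0.61 without normal replicate 1. For smooth muscle it was 0.12, and -0.09 without normal replicate 3. The other medians were -0.24 for cholangiocytes, -0.18 for pancreatic islets, -0.13 for red blood cells, -0.04 for heart muscle, 0.21 for intestine and stomach and 0.33 for kidney and adrenal.

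The same diets changed fewer genes past the threshold in wild type liver, where 9 of 12264 (0.0734%) were called, 2 higher (0.0163%) and 7 lower (0.0571%). At an unadjusted p under 0.05 were 1015 genes (8.28%), and 28 of the 59 knockout genes were among them. Of the 59 knockout genes, 4 were called in wild type as well, Ces2a, Pltp, Gamt and Tlcd2, a membrane protein gene that rose by 0.99 ± 0.14 in the knockout (adjusted p = 0.00484) and by 0.82 ± 0.14 in wild type (adjusted p = 0.0472). The signs in wild type matched for 48 of the 59 and were opposite for 11, and the wild type difference was the smaller in 55. The share of matching signs over all genes was not counted. Over all 12264 genes the differences in the 2 genotypes were only weakly correlated (Pearson r 0.11, Spearman r 0.15). Since the 59 were chosen for their size in the knockout, a smaller value elsewhere is a property of that choice. The other genes called in wild type were Csad, Scd1, Gstm1, Dbi and Rdh16.

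Those 5 fell in wild type and were not called in the knockout. Scd1 went from 60661, 64080 and 55306 to 21181, 13222 and 33766 in wild type (-1.50 ± 0.24, adjusted p = 0.0382), and Csad, which makes taurine, from 6441, 6394 and 10320 to 1691, 2724 and 1638 (-1.93 ± 0.26, adjusted p = 0.0136). The knockout differences were -0.26 ± 0.24 and -0.92 ± 0.26, the latter with groups that did not overlap (adjusted p = 0.193). Gstm1, a glutathione transferase, differed by -0.72 ± 0.12 in wild type and -0.24 ± 0.12 in the knockout, Dbi, the acyl-CoA binding protein, by -0.67 ± 0.09 and -0.21 ± 0.09, and Rdh16, a retinol dehydrogenase, by -0.66 ± 0.10 and -0.35 ± 0.10.

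The difference between the genotypes' responses was tested for every gene and 0 of 12264 were called by limma, with 728 (5.94%) at an unadjusted p under 0.05. The lowest adjusted p was 0.177, for Nat8f5 and Wfdc2. For Scd1 the difference was 1.24 ± 0.34 (adjusted p = 0.582), for Cyp2b9 1.15 ± 0.24 (adjusted p = 0.28), for Hao2 2.25 ± 0.42 (adjusted p = 0.211) and for Cyp4a31 -1.48 ± 0.30 (adjusted p = 0.279). A knockout response that passed beside a wild type response that did not is therefore not shown to differ by this test. Its median standard error of 0.285, against 0.202 for a single diet contrast, limits what it can call.

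**Figure D5:**
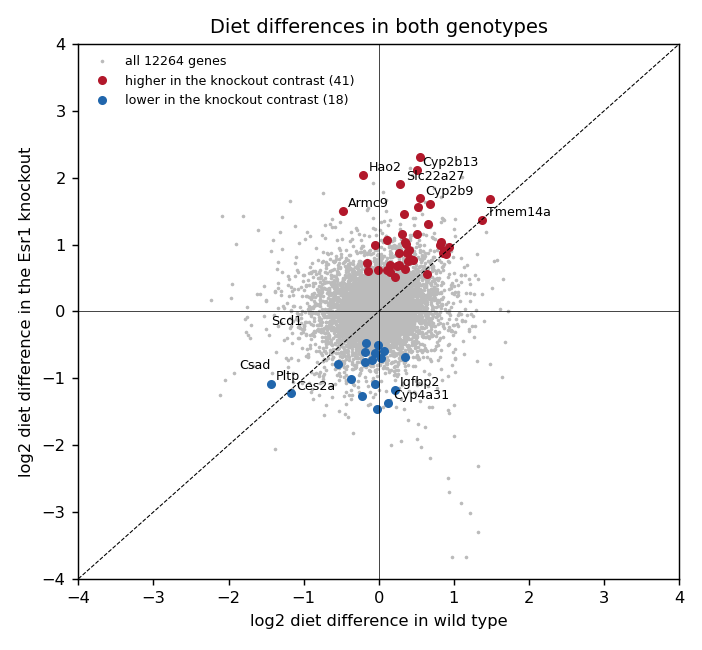
Diet difference (log2, high-fat minus normal diet) in wild type liver (x axis) and in aERKO liver (y axis) for 12264 genes (grey), with the 41 genes called higher and 18 called lower in aERKO in red and blue; the dashed line marks equal differences. Ces2a, Pltp and Tmem14a lie near the line, while Hao2, Slc22a27, Igfbp2 and Cyp4a31 lie near 0 on the wild type axis.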

How the data were processed

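Liver RNA of 12 samples in 4 groups of 3 was measured on 1-colour Affymetrix 3' arrays. The authors deposited 1 linear intensity per probe set and array; per the submitters' processing notes, Affymetrix Expression Console and MAS5 were used, and the sources used here give no versions. The arrays share 1 scale: trimmed by 2% at each end, the mean intensity was 500 on all 12. MAS5 works array by array, so dim signals scatter widely on a log scale. Detection flags, scanner files and scan batches were not used here, and the number of arrays limits the precision. Array medians were 75.6 to 92.9 on the knockout arrays. The 3' to 5' ratios of Gapdh, which speak of RNA quality, were 0.657 to 0.727 there, and those of actin 1.762 to 2.147. The r of log2 values was 0.9504 to 0.963 within knockout groups and 0.9456 to 0.9635 between diets, and 0 pairs of arrays were identical.

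Probe sets were named by the platform annotation. Of 45101, 34958 carried a single symbol, 932 more than that and 9211 are unnamed here; the 34958 gave 18194 genes, and 0 symbols differed from those of the RefSeq table. Each gene is represented by its brightest probe set. Genes above the array median on at least 3 of 12 arrays were kept, 12264 in all. Values were log2(signal + 16), which understates differences of dim genes. A model with a mean per group was fitted to all 12 arrays in R 4.3.3 with limma 3.58.1, with moderated variances and an intensity trend (8 residual and 5.85 prior degrees of freedom, two-sided p, Benjamini-Hochberg over 12264 genes, called under 0.05). The fit was tested on simulated data. Errors are SD of signals or SE of log2 differences.

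The members and the 23 pathway and 18 marker lists were chosen with earlier results of these data known, so lists are described by counts and medians without a test. Named were the 12 called genes with the largest rise and the 12 with the largest fall whose groups did not overlap, called members of each pathway list (up to 4 a direction, or the member with the lowest p), Esr1, a fixed set of lipid metabolism genes (not all are reported here), the 3 brightest acinar and 3 brightest muscle genes on knockout arrays, and genes called in wild type. Alternatives changed the pseudocount, filter, normalization, trend, weights, probe set choice and arrays.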

Additional observations from a re-analysis of the deposited data

How the results depend on the processing

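The count of genes called for diet in the knockout, 59, was 22 with median centring, 12 without the intensity trend, 187 with array quality weights, 22 with only the compared groups in the fit, 26 with the mean of probe sets, 32 with the probe set of largest spread, 33 with acinar and muscle scores as covariates, 18 without the 4 arrays with raised acinar transcripts, 7 without the 3 knockout arrays with raised muscle transcripts, and 16 without aERKO normal replicate 1 and high-fat replicate 2 together, an alternative chosen after seeing the data. Leaving out 1 array gave 13 to 81. The wild type count, 9, was 5 with no filter, 1 with median centring, 0 without the trend (1015 genes had an unadjusted p under 0.05 in the limma fit with the trend), 21 with weights, 4 with the probe set of largest spread, 0 without the acinar arrays, 3 without the muscle arrays, 14 without the pair together, and 2 to 20 when 1 array was left out. The count for the difference of responses, 0, was 1 with the covariates (Igfbp2) and 0 to 2 when 1 array was left out; the 2, without aERKO high-fat replicate 3, were Cyp2b13 and Leap2. The cause of these changes was not tested; the fits with fewer arrays also have fewer residual degrees of freedom.

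Same-numbered knockout arrays of the 2 diets had correlated deviations of 0.119, -0.075 and 0.212, and wild type arrays of 0.115, -0.017 and -0.112, so the numbers were not taken as pairs. With the replicate number as a block, 51 genes were called for diet in the knockout, 45 of them among the 59, 6 in wild type and 0 for the difference.

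Of 2796 values of 100 genes under 28 alternatives, 2033 kept their direction and side of the threshold, 713 lost the call, 21 gained one and 29 changed sign. The 29 belong to Acta1 (1.17 with weights, 0.20 with covariates, 0.69 without the acinar arrays, 0.84 without the muscle arrays, 0.69 without normal replicate 1, 0.04 without high-fat replicate 3), Myh1 (0.82 with weights, then 0.42, 0.08 and 0.42 without the acinar arrays, the muscle arrays and normal replicate 1), Cela1 (0.18, 0.35, 0.45, 0.38 and 0.35 with covariates and without the acinar arrays, the muscle arrays, the pair and normal replicate 1), Cela3b (0.70, 0.92, 0.15, 0.59 and 0.92 in that order), Prss2 (0.03 without the acinar arrays and without normal replicate 1), Fgf21 (-0.11, -0.55, -0.16 and -0.11 without the acinar arrays, the muscle arrays, the pair and normal replicate 1), Car3 (-0.03 without normal replicate 3), Ces1d (-0.13) and Ebpl (-0.48), both with the probe set of largest spread. When 1 array was left out, the lowest value was -3.16 for Acta1, -2.03 for Cela1, -3.72 for Cela3b, -3.46 for Myh1 and -4.53 for Prss2, and the highest was 0.55 for Fgf21. Ebpl is the 1 called gene whose sign changed. Cyp2b9, Dio1, Slc22a27 and Wfdc2 were called in the knockout under all 28 alternatives. Of 1147 list medians, 55 moved by more than the replicate spread, the SD of the list level within knockout groups. That spread is wide where single arrays stand apart. The acinar median was thus not counted as moved when it went from -1.86 to 0.24 without normal replicate 1. When 1 knockout array was left out, the medians of 12 pathway lists and 12 marker lists changed sign in at least 1 setting.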

Other observations

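Thrsp, a lipogenic protein that responds to thyroid hormone, was on the lists of fatty acid synthesis and adipocyte markers. It read 13967, 3541 and 2260 on the aERKO normal diet and 24556, 20781 and 14598 on the high-fat diet (difference 2.01 ± 0.46, adjusted p = 0.0841). The first normal diet array, which also carried pancreatic and muscle transcripts, was far above the others of its group and close to the lowest high-fat array. The collagen genes Col1a2 and Col3a1 had non-overlapping groups without a call, as 16.7% of all genes had non-overlapping groups, at 416, 449 and 329 against 712, 709.7 and 578 (adjusted p = 0.0673) and 453, 378 and 275 against 870.5, 785 and 584 (adjusted p = 0.156). One of the 3 probe sets of Col1a2 had the opposite sign. Marco, a scavenger receptor of macrophages, gave 691, 660.2 and 363 against 298, 155 and 286 in the knockout (difference -1.16 ± 0.29, adjusted p = 0.128) and a wild type difference of -1.16 ± 0.29. The acute phase list had mean log2 levels of 14.10, 12.66 and 13.22 on the knockout normal diet arrays and 13.98, 13.65 and 12.98 on the high-fat arrays, so it varied between arrays of a group more than between diets. Socs3, a feedback inhibitor of cytokine signalling, read 6014, 1116 and 3198 against 639, 1656 and 778, with overlapping groups (adjusted p = 0.291). These genes were named after their values were seen.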
